A study of Homo sapiens with 12 samples.

Results

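Overexpression of SFRP2 was examined in PC3 cells growing on uncoated plastic, in the 6 of the 12 libraries of the series that were made without collagen coating, 3 of CCP-PC3SFRP2 cells and 3 of CCP-PC3 cells. These 6 libraries were chosen by their labels and fitted on their own, and the comparison was read across all genes. PC3 is an established human prostate cancer cell line from a bone metastasis. CCP-PC3SFRP2 cells carried a Sleeping Beauty transposon with the human SFRP2 coding sequence together with a red fluorescent protein and puromycin resistance, and CCP-PC3 cells carried the same transposon without SFRP2. Both had passed 14 days of puromycin selection and a sort for red fluorescence before they were seeded in T25 flasks of uncoated cell culture polystyrene (CCP), from which RNA was taken on day 5. The other 6 libraries are the same pair of cell populations on collagen type I (COL1-PC3SFRP2 and COL1-PC3). One transfected population of each kind is described, so that an effect of SFRP2 and a difference between the 2 populations cannot be told apart. The labels call the libraries of a group biological replicates but do not say whether they came from separate cultures. The p-values may therefore measure technical spread only.

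SFRP2 is a secreted protein with a cysteine-rich domain like that of the Frizzled receptors. It binds WNT ligands outside the cell and is best known as an antagonist of WNT signaling, although in some settings it favors it, and its own promoter is silenced in many tumors. As a secreted protein it is folded and disulfide-bonded in the endoplasmic reticulum (ER), where unfolded protein activates the sensors IRE1, PERK and ATF6 of the unfolded protein response. ATF6 and spliced XBP1 act on promoters with the ER stress response element (ERSE) to raise chaperones, while PERK acts through ATF4 and DDIT3.

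The libraries held 7446136 to 8380405 counts in genes in CCP-PC3SFRP2 and 7472812 to 9975972 in CCP-PC3. Levels are given in CPM, counts relative to the size of the library after TMM scaling. Pearson correlations of log2 CPM across genes were 0.970 to 0.978 within the groups and 0.967 to 0.972 between them. The third CCP-PC3 library stood somewhat apart: its deviation from the other libraries correlated with the GC content of the genes at a Spearman correlation of -0.532, against 0.014 to 0.239 in the CCP-PC3SFRP2 libraries and 0.155 and 0.243 in the other CCP-PC3 libraries. The mitochondrial genome took 21.3 ± 0.617% of the counts in CCP-PC3SFRP2 and 21.5 ± 1.5% in CCP-PC3 (SD, n = 3 each; two-sided exact permutation p = 0.8, where the smallest p possible is 0.1).

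The transgene was the largest difference. SFRP2 (ENSG00000145423, GRCh38 chromosome 4 from 153780591 to 153789083) had 16577, 15715 and 19365 CPM in the CCP-PC3SFRP2 libraries, against 10.5, 16.1 and 25.1 CPM in the CCP-PC3 libraries. The groups were far apart, and SFRP2 alone took 1.57% to 1.91% of all counts in the overexpressing libraries. The log2 fold change was 10.00 (standard error 0.38, adjusted p = 0.000362 from the quasi-likelihood test of edgeR). Standard errors in this report are the absolute log2 fold change divided by the square root of the test's F statistic. They follow from the test and are not a separate measure of precision. The counts do not separate transcripts of the transgene from those of the cell's own SFRP2 gene.

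Across the transcriptome, genes of protein folding in the ER were raised in CCP-PC3SFRP2. A cartilage collagen and the receptor FZD4 were lower. In groupings made after the values were seen, several mucosal secretory genes and the ERK feedback inhibitors DUSP6, SPRY4 and DUSP4 were lower too. Of 18253 genes tested, 891 were called at an adjusted p under 0.05 (Benjamini-Hochberg), which is 4.88%. Of these, 413 were higher (2.26% of the genes tested) and 478 lower (2.62%). The counts of called list members below stand beside these shares. Where a list held few calls, they are given as values of single genes and not as a result about the family. Most differences were small: the median size among the called genes was 0.52 on the log2 scale, 731 of them (82.0%) lay within a log2 fold change of 1, and 69 rose and 91 fell by more. Beyond a log2 fold change of 2 were 51 genes (0.279% of those tested), 22 higher (0.121%) and 29 lower (0.159%), of which 10 averaged under 1 CPM in both groups. Protein-coding genes made up 845 of the 891 and long noncoding RNAs 33. The number of calls depended on the libraries in the fit: when all 12 shared 1 estimate of the spread, 16 genes were called. It was 426 to 1599 when 1 of the 6 libraries was left out, lowest without the third CCP-PC3SFRP2 library and highest without the third CCP-PC3 library, and 313 genes (138 higher and 175 lower) stayed called through all 6 of these.

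**Figure D1:**
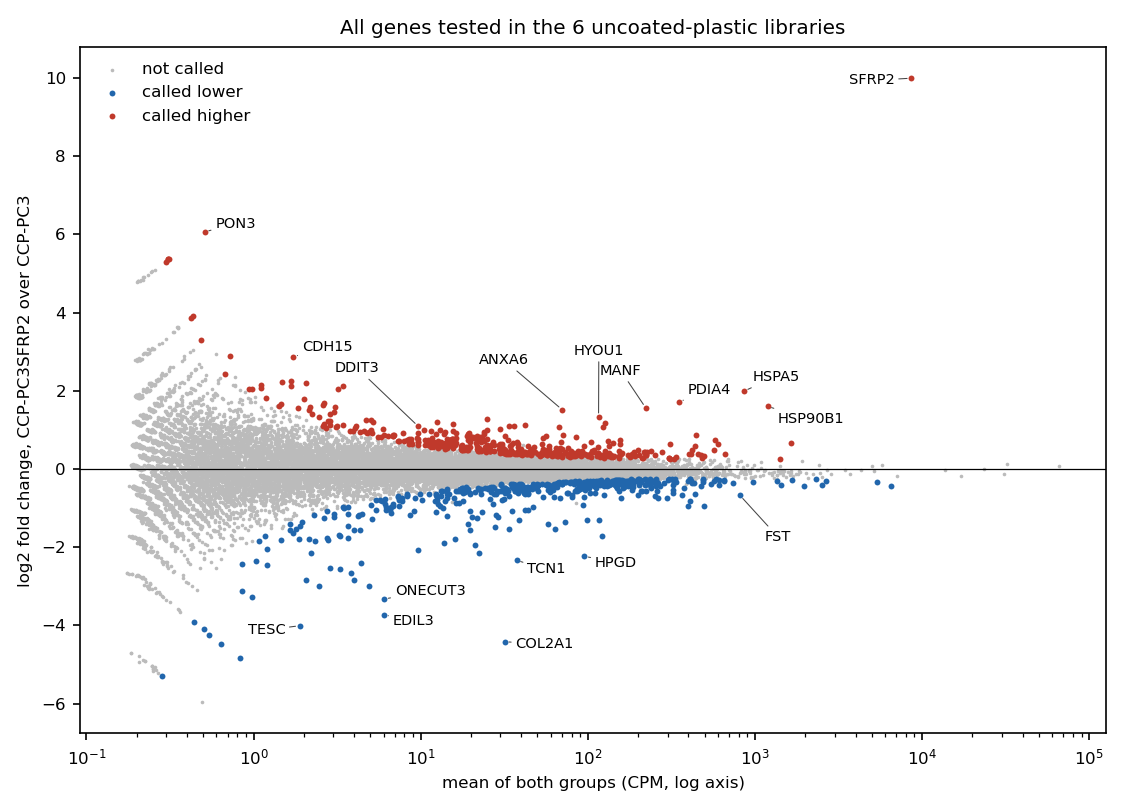
Log2 fold change of every gene tested (CCP-PC3SFRP2 over CCP-PC3, vertical axis) against its mean level over both groups (CPM, log axis), with the 413 genes called higher in red and the 478 called lower in blue. SFRP2 sits alone at the top right, the ER chaperones HSPA5, HSP90B1, PDIA4 and MANF form the upper edge of the well expressed genes, and COL2A1 is the lowest among genes of its level.

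The ER chaperones and folding enzymes had the highest share of called members of the 40 lists. Of 25 members tested, 19 rose and 0 fell, with a median log2 fold change of 0.68, against a median of -0.001 over all genes. They span each step of folding: the lumenal chaperones of the HSP70 and HSP90 families, their J-domain partners, the disulfide isomerases, and the lectin cycle that retains glycoproteins. The 6 members not called were GRPEL1, a mitochondrial cochaperone, and DNAJB9, SIL1, ERO1B, TXNDC5 and ERO1A, with log2 fold changes from -0.32 to 0.47. The 19 calls remained 17 to 21 in number when any 1 library was left out, and fell to 3 in the fit of all 12 libraries.

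HSPA5 encodes BiP, the lumenal HSP70 that also holds the stress sensors inactive. HSPA5 (ENSG00000044574, chromosome 9 from 125234853 to 125241382) had 1507, 1254 and 1368 CPM in CCP-PC3SFRP2, against 341, 325 and 372 CPM in CCP-PC3. Every overexpressing library was more than 3 times the highest control library. Its log2 fold change was 1.99 (standard error 0.08, adjusted p = 2.17e-23), the smallest p of all genes. HSP90B1, the lumenal HSP90 GRP94, had 1970, 1610 and 1788 CPM in CCP-PC3SFRP2, against 576, 527 and 670 CPM in CCP-PC3. Its groups were also well separated (log2 fold change 1.6, standard error 0.08, adjusted p = 2.11e-19). A processed copy, HSP90B2P, rose by 2.13 on the log2 scale at 5.63 ± 1.77 CPM against 1.24 ± 0.517 CPM (SD, n = 3 each); reads of so similar a sequence may belong to either, and the call was lost with the second alignment.

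PDIA4, a protein disulfide isomerase, had 560, 520 and 540 CPM in CCP-PC3SFRP2, against 162, 163 and 169 CPM in CCP-PC3. Replicates were within a few percent of each other in both groups, and the log2 fold change was 1.72 (standard error 0.08, adjusted p = 1.63e-21). MANF, a small ER protein that binds BiP and is secreted when ER calcium falls, had 352, 315 and 329 CPM in CCP-PC3SFRP2, against 115, 112 and 110 CPM in CCP-PC3. HYOU1, the nucleotide exchange factor of BiP, had 167, 163 and 167 CPM in CCP-PC3SFRP2, against 63.8, 73.7 and 61.1 CPM in CCP-PC3. No library of one group reached the range of the other for any of these 3, and the log2 fold changes were 1.56 for MANF and 1.33 for HYOU1 (standard errors 0.08 and 0.09, adjusted p = 2.11e-19 and 2.66e-15).

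Smaller rises were seen in SDF2L1, a cofactor of BiP (log2 fold change 1.19), the J-domain proteins DNAJB11 (1.11) and DNAJC3 (0.85), the isomerases PDIA6 (1.08), PDIA3 (0.86) and P4HB (0.65), and the calcium-binding protein CRELD2 (0.96). The lectin chaperones rose too, CANX by 0.74 and CALR by 0.65 on the log2 scale, together with UGGT1 (0.68), the enzyme that returns unfolded glycoproteins to them. CALR, an abundant calcium store of the ER, had 2037, 1922 and 2053 CPM in CCP-PC3SFRP2, against 1303, 1321 and 1202 CPM in CCP-PC3, again without overlap.

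**Figure D2:**
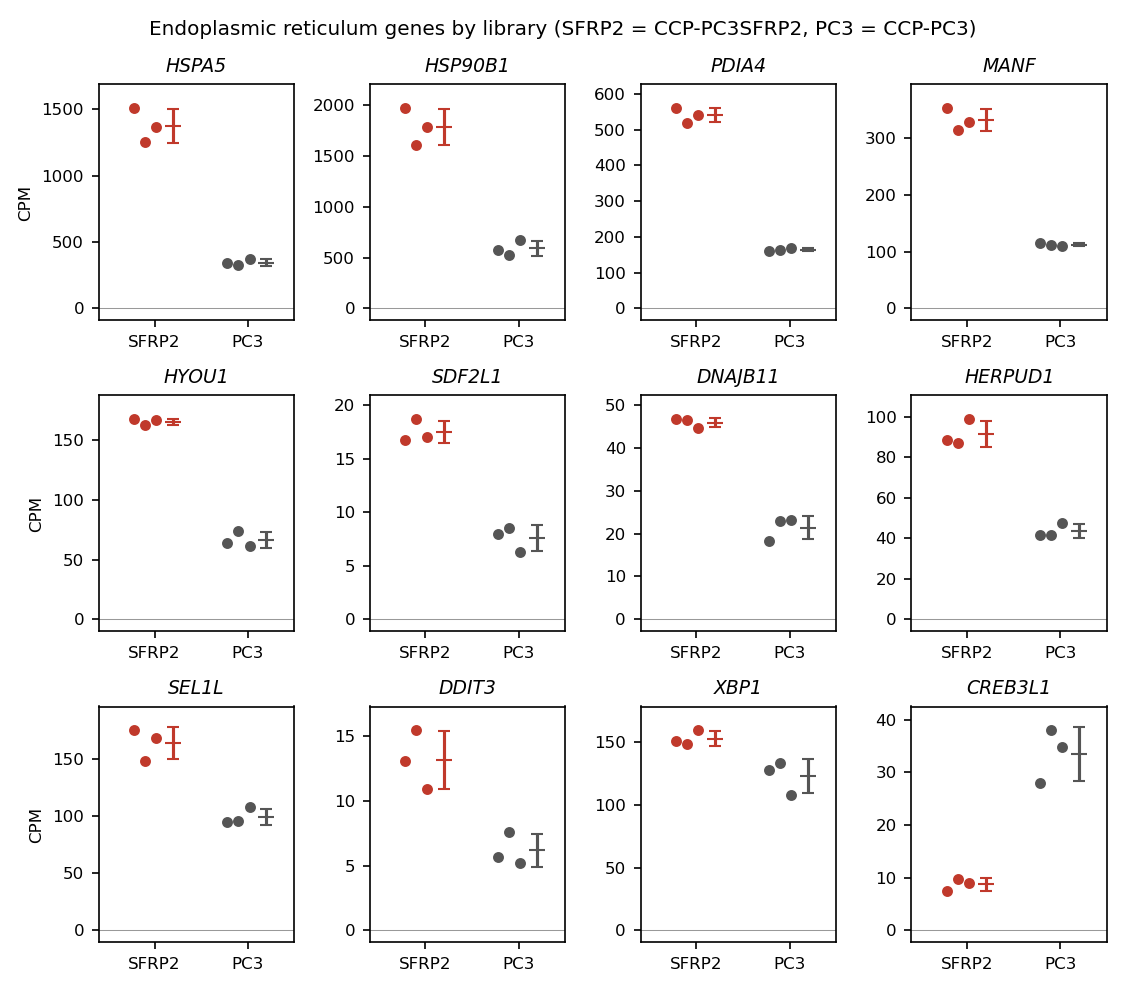
CPM of 12 genes of the ER in each library, CCP-PC3SFRP2 (red, left) and CCP-PC3 (gray, right), 3 points per group in replicate order with mean ± SD beside them; each panel has its own linear axis. In all 12 panels the groups are separate, with XBP1 the closest at 149 to 159 CPM against 108 to 134 CPM, and CREB3L1 the only gene lower in CCP-PC3SFRP2.

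Promoters are shown for 5 of the raised ER genes because they carry the element through which ATF6 and XBP1 are known to act. The 250 bases before the start of each gene are from RefSeq (GRCh38.p14), 5′ to 3′ on the strand of the gene, with ERSE or ERSE-II in capitals. HSPA5 is shown from chr9:125241344-125241593 (minus strand), HSP90B1 from chr12:103930160-103930409 (plus), CALR from chr19:12938359-12938608 (plus), HYOU1 from chr11:119057206-119057455 (minus) and HERPUD1 from chr16:56931892-56932141 (plus).
HSPA5: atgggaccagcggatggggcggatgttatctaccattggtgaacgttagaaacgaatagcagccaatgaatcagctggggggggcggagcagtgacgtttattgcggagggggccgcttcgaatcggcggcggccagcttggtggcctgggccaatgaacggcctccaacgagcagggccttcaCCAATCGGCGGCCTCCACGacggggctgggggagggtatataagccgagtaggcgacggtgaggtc
HSP90B1: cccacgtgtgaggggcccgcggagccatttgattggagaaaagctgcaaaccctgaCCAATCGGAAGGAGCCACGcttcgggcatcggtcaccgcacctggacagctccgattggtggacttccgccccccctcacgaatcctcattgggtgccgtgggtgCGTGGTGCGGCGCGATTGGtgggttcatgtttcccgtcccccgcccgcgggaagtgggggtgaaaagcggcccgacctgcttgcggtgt
CALR: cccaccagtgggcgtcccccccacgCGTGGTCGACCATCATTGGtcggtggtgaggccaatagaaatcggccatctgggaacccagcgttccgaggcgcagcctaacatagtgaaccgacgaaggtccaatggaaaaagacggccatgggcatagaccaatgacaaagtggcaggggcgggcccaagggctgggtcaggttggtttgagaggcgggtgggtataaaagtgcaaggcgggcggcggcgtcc
HYOU1: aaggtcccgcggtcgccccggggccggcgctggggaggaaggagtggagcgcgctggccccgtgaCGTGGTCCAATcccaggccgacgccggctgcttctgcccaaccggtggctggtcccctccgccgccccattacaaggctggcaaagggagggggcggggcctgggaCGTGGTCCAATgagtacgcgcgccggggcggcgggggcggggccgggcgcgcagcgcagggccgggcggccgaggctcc
HERPUD1: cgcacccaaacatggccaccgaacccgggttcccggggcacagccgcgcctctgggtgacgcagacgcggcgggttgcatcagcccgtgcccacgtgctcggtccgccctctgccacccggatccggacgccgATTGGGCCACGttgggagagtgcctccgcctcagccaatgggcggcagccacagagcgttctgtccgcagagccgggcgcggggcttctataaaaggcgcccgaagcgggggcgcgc
HSPA5 has 1 ERSE, 66 to 48 bases before the start, HSP90B1 has 2 (194 to 176 and, on the opposite strand, 89 to 71 bases before it) and CALR 1 on the opposite strand. HYOU1 has 2 copies of ERSE-II and HERPUD1 has 1.

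ERSE was searched as CCAAT and CCACG with 9 bases of any kind between them, and ERSE-II as ATTGG, 1 base of any kind and CCACG, on both strands, in windows of 250 bases before to 50 after the start of the 11875 tested genes with a RefSeq promoter. ERSE was in 14 of these windows (0.118%) and in 6 of the 22 of the ER chaperone list (27.3%), those of HSPA5, HSP90B1, CALR, CANX, CRELD2 and ERO1B. Of all 14 genes with an ERSE, 7 were called higher and 0 lower, beside 2.26% and 2.62% of all genes tested. The others of the 7 were XBP1 and TRIM5, an antiviral restriction factor. Within the chaperone list, ERSE was in 5 of the 17 windows of members called higher (29.4%), near the share of the whole list. PDIA4 and MANF, among the most raised of the list, had neither ERSE nor ERSE-II. ERSE-II was in 11 windows (0.0926%), 3 of them of genes called higher (HYOU1, SDF2L1 and HERPUD1) and 0 of genes called lower. The XBP1 site TGACGTGG was in 1.21% of the windows of higher genes and 0.943% of all windows, and the ATF4 site TGATGNAA in 3.03% of the windows of higher genes, 3.57% of those of lower genes and 1.79% of all. Different motifs overlapped in 1 window.

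ER-associated degradation and translocation moved less. Of 26 members tested, 8 rose and 0 fell, with a median of 0.20. HERPUD1, which recruits the degradation complex to the membrane, had 88.5, 86.9 and 98.8 CPM in CCP-PC3SFRP2, against 41.7, 41.6 and 47.6 CPM in CCP-PC3. The groups were well apart (log2 fold change 1.07, standard error 0.10, adjusted p = 4.85e-11). SEL1L (0.72), OS9 (0.51), DERL2 (0.43) and SYVN1 (0.43), the scaffold, lectin, channel component and ubiquitin ligase of the same complex, rose by smaller amounts, and so did SEC61A1, the pore of the translocon, by 0.41. The secretory pathway carriers, 29 genes of the COPI and COPII coats and cargo receptors, had 4 members higher and 0 lower (SEC24D 0.50, MCFD2 0.42, SEC24C 0.40 and TMED2 0.29, the last passed in 11 of 17 alternatives) and a median of 0.17.

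Among 14 stress sensors and their transcription factors, 4 rose and 1 fell. DDIT3, the PERK target CHOP, had 13.1, 15.4 and 10.9 CPM in CCP-PC3SFRP2, against 5.70, 7.62 and 5.20 CPM in CCP-PC3. Its groups did not overlap (log2 fold change 1.09, standard error 0.20, adjusted p = 0.000178). CREB3L2, an ER-bound factor of secretory cells, rose by 0.51, XBP1 by 0.31 and PPP1R15A, the phosphatase subunit that reverses PERK, by 0.48 (adjusted p = 0.00186, 0.0266 and 0.0444); the last 2 calls were lost under several alternatives. The sensors ATF6, ERN1 and EIF2AK3 had log2 fold changes of 0.06, 0.48 and 0.30 and were not called.

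CREB3L1 went the other way. It encodes OASIS, an ER-bound transcription factor that drives collagen and secretory genes in osteoblasts. CREB3L1 had 7.49, 9.79 and 8.94 CPM in CCP-PC3SFRP2, against 27.9, 38 and 34.8 CPM in CCP-PC3. The highest overexpressing library was well below the lowest control library. The log2 fold change was -1.94 (standard error 0.15, adjusted p = 2.96e-13).

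ATF4 targets and cytosolic stress genes held fewer called members than the chaperone list. Of 24 ATF4 targets of the integrated stress response, 2 rose and 0 fell (NUPR1, a stress-induced nuclear protein, by 0.48, and the arginine transporter SLC7A1 by 0.40, passed in 9 and 8 of 17 alternatives), beside 2.26% of all genes called higher, with a median of 0.10, and ATF4 itself was at 119 ± 11.7 CPM against 108 ± 13.3 CPM (SD, n = 3 each; log2 fold change 0.15, not called). Of 20 cytosolic tRNA synthetases, which ATF4 also regulates, 0 rose and 1 fell (NARS1, -0.30, passed in 12 of 17 alternatives). Of 16 cytosolic heat shock proteins and cofactors, 0 rose and 3 fell, BAG3 by 0.50, HSPE1, a mitochondrial chaperonin on the same list, by 0.45, and HSP90AB1 by 0.28 on the log2 scale, with a list median of -0.14. HSPE1 and HSP90AB1 each passed in 11 of 17 alternatives.

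In the WNT pathway, the known target of SFRP2, genes were called in both directions. Of 23 ligands and receptors tested, 2 rose and 2 fell, a larger share than the 4.88% of all genes. FZD4, a Frizzled receptor, had 31.0, 36.0 and 28.2 CPM in CCP-PC3SFRP2, against 79.0, 83.5 and 88.3 CPM in CCP-PC3. The lowest control library was more than 2 times the highest overexpressing one, and the log2 fold change was -1.40 (standard error 0.11, adjusted p = 9.11e-14). The other receptors called were FZD8 (-0.35, passed in 12 of 17 alternatives) and FZD2 (0.54), and the ligand WNT9A rose by 0.57 (passed in 9 of 17). Of 17 feedback and target genes of beta-catenin, 1 rose (JUN, 0.56) and 3 fell, the transcription factor TCF7L2 (-0.51), the receptor TNFRSF19 (-0.83) and the R-spondin receptor LGR4 (-0.52). AXIN2, a standard readout of the pathway, was near the floor of detection, with 0, 3 and 0 counts in CCP-PC3SFRP2 and 0, 6 and 1 in CCP-PC3, so that no difference was detectable at this depth.

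No member of the beta-catenin destruction complex and the dishevelled proteins was called (0 of 11, beside 4.88% of all genes). The smallest p values were those of AXIN1 at -0.31 and DVL2 at 0.25 (adjusted p from edgeR = 0.425 and 0.492). CTNNB1, beta-catenin itself, had 150, 151 and 151 CPM in CCP-PC3SFRP2, against 160, 147 and 153 CPM in CCP-PC3. Among 6 WNT antagonists tested SFRP2 alone was called. DKK1, an abundant WNT antagonist of these cells, had 1553, 1588 and 1580 CPM in CCP-PC3SFRP2, against 1857, 1760 and 1733 CPM in CCP-PC3, without overlap but and was not called (log2 fold change -0.18, standard error 0.07, adjusted p = 0.176); the groups did not overlap in 21.1% of all genes tested, with 10.3% higher and 10.8% lower.

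BMP and TGF-beta genes gave 2 higher and 3 lower of 27, beside 2.26% and 2.62% of all genes. FST, the secreted inhibitor of activin, had 649, 663 and 567 CPM in CCP-PC3SFRP2, against 1001, 988 and 1013 CPM in CCP-PC3. The groups were separate, and the log2 fold change was -0.68 (standard error 0.08, adjusted p = 9.45e-09). BMP3 fell by 1.27 and SMAD1, which carries BMP signals, by 0.54, while TGFB2 rose by 0.35 and SMAD7, the inhibitory SMAD, by 1.23. SMAD1 and TGFB2 each passed in 13 of 17 alternatives. Of 12 osteoblast and bone matrix genes, 0 rose and 2 fell: TNFRSF11B, the RANKL decoy osteoprotegerin, had 2.52 ± 0.0669 CPM against 5.87 ± 1.53 CPM (SD, n = 3 each; log2 fold change -1.20, adjusted p = 0.00498), and SPARC, the matrix protein osteonectin, had 1, 0 and 0 counts in CCP-PC3SFRP2 against 6, 11 and 6 counts in CCP-PC3 (adjusted p = 0.0163, passed in 11 of 15 alternatives).

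COL2A1, the chain of cartilage collagen, was the most reduced gene at a substantial level. COL2A1 (ENSG00000139219, chromosome 12 from 47972967 to 48004554) had 2.69, 3.89 and 1.96 CPM in CCP-PC3SFRP2, against 46.3, 75.5 and 61.1 CPM in CCP-PC3. Even the lowest control library was more than 10 times the highest overexpressing one. The log2 fold change was -4.42 (standard error 0.20, adjusted p = 9.21e-17), and it ranged from -4.69 to -4.21 over the alternatives, missing the threshold only when all 12 libraries were fitted together (adjusted p = 0.26).

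Other matrix genes moved in both directions, beside 2.26% of all genes called higher and 2.62% called lower. Of 22 collagen chains, 4 rose and 2 fell: COL4A4 (2.13, at 2.73 ± 0.288 CPM against 0.640 ± 0.327 CPM; SD, n = 3 each), COL5A1 (1.61), COL12A1 (0.42, passed in 11 of 17 alternatives) and COL6A3 (0.35) were higher and COL5A2 (-0.52) was lower beside COL2A1. Of 27 laminins and matrix glycoproteins, 7 rose and 1 fell. The higher ones included thrombospondin THBS1 (0.49), fibronectin FN1 (0.46) and laminin LAMB3 (0.58). The lower one was EDIL3, an integrin ligand, which had 0.585, 1.07 and 0.857 CPM in CCP-PC3SFRP2, against 9.30, 10.6 and 13.9 CPM in CCP-PC3. Of 19 integrins, ITGA3 rose (0.28) and ITGA1, a collagen receptor subunit, fell (-0.60), and of 18 metalloproteinases and inhibitors the membrane protease MMP14 rose (0.43) and the inhibitor TIMP1 fell (-0.40). ITGA3 and MMP14 each passed in 11 of 17 alternatives, and ITGA1, whose groups overlapped, in 12 of 17.

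Adhesion and cell state genes were called in both directions, from CDH15 at 2.87 to KRT4 at -2.54. Over all genes tested, 2.26% were called higher and 2.62% lower. CDH15, a cadherin of muscle, had 2.69, 2.28 and 4.16 CPM in CCP-PC3SFRP2, against 0.30, 0.952 and 0 CPM in CCP-PC3. Its groups were separate at low counts (log2 fold change 2.87, standard error 0.53, adjusted p = 0.000249). Of 15 cadherins it and CDH2 (N-cadherin, 0.31, passed in 9 of 17 alternatives) rose and 0 fell. Of 19 genes of the epithelial-mesenchymal switch, 4 rose and 0 fell: SNAI2, the repressor SLUG, had 29.3, 29.9 and 30.5 CPM in CCP-PC3SFRP2, against 15.8, 18.1 and 20.7 CPM in CCP-PC3 (log2 fold change 0.72), and FN1, vimentin VIM (0.41) and CDH2 were the others. The remaining 15 were not called, and the list median was 0.12. The epithelial cadherin CDH1 was not lower: it had 154.5, 146.5 and 156.9 CPM in CCP-PC3SFRP2, against 140.4, 129.9 and 139.7 CPM in CCP-PC3, and was not called. Of 15 keratins, 0 rose and 2 fell, KRT4 of stratified epithelium (-2.54) and KRT15 of basal cells (-0.57). Of 20 claudins and tight junction partners, CLDN11 rose (0.70) and CLDN1 fell (-1.07). Of 20 YAP and TEAD targets, 7 rose and 2 fell, among them the matricellular CCN1 (0.44) and the receptor kinase AXL (0.35) upward and the coactivator WWTR1 (-0.40) downward.

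Among secreted proteases and regulators of signaling, KLK5, KLK6, ANXA6 and EGFR rose and RGS2 fell. Of 6 kallikrein-related peptidases tested, 2 rose and 0 fell: KLK5, a serine protease of skin, had 171, 181 and 179 CPM in CCP-PC3SFRP2, against 79.3, 83.4 and 70.4 CPM in CCP-PC3 (log2 fold change 1.19, standard error 0.09), and its neighbor KLK6 rose by 0.87. Of 10 annexins, ANXA6 rose (1.52, 104 ± 4.52 CPM against 36.2 ± 5.66 CPM; SD, n = 3 each) and ANXA7 fell (-0.26, passed in 9 of 17 alternatives). RGS2, a brake on Gq signaling, had 28.4, 38.5 and 31.3 CPM in CCP-PC3SFRP2, against 89.5, 94.7 and 98.9 CPM in CCP-PC3 (log2 fold change -1.53), while RGS4 rose by 0.76, as the 2 called of 11 regulators of G protein signaling. Of 14 genes of the EGF receptor family and its ligands, EGFR alone was called, with 559, 496 and 520 CPM in CCP-PC3SFRP2, against 344, 327 and 386 CPM in CCP-PC3 (log2 fold change 0.58, standard error 0.08, adjusted p = 1.16e-06).

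HPGD, which inactivates prostaglandins, had 33.8, 34.5 and 31.8 CPM in CCP-PC3SFRP2, against 121, 164 and 187 CPM in CCP-PC3. The lowest control library was more than 3 times the highest overexpressing one (log2 fold change -2.23, standard error 0.12, adjusted p = 1.31e-15), and with PTGES, a prostaglandin E synthase (-0.41, passed in 10 of 17 alternatives), it made 2 lower and 0 higher of 10 genes of prostaglandin metabolism. Of 17 coagulation and fibrinolysis genes, 2 rose and 5 fell: the coagulation inhibitor TFPI (-1.56), the protease-activated receptor F2RL1 (-0.73) and the plasminogen activator PLAT (-0.41) were lower, and the activator PLAU (0.37) and tissue factor F3 (0.74) higher. Of 24 cytokines, chemokines and acute-phase genes, 1 rose (TNFAIP2, 0.39) and 4 fell, the neutrophil chemokines CXCL8 (-0.61), CXCL1 (-0.58) and CXCL6 (-0.60) and the alarmin IL33 (-2.16). Of 27 genes of interferon response and antigen presentation, 4 rose and 0 fell: OASL (0.74), IRF1 (0.84), PSMB8 (0.61) and OAS3 (0.38). IRF1 passed in 12 of 17 alternatives, and PSMB8 and OAS3 each in 13 of 17.

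**Figure D3:**
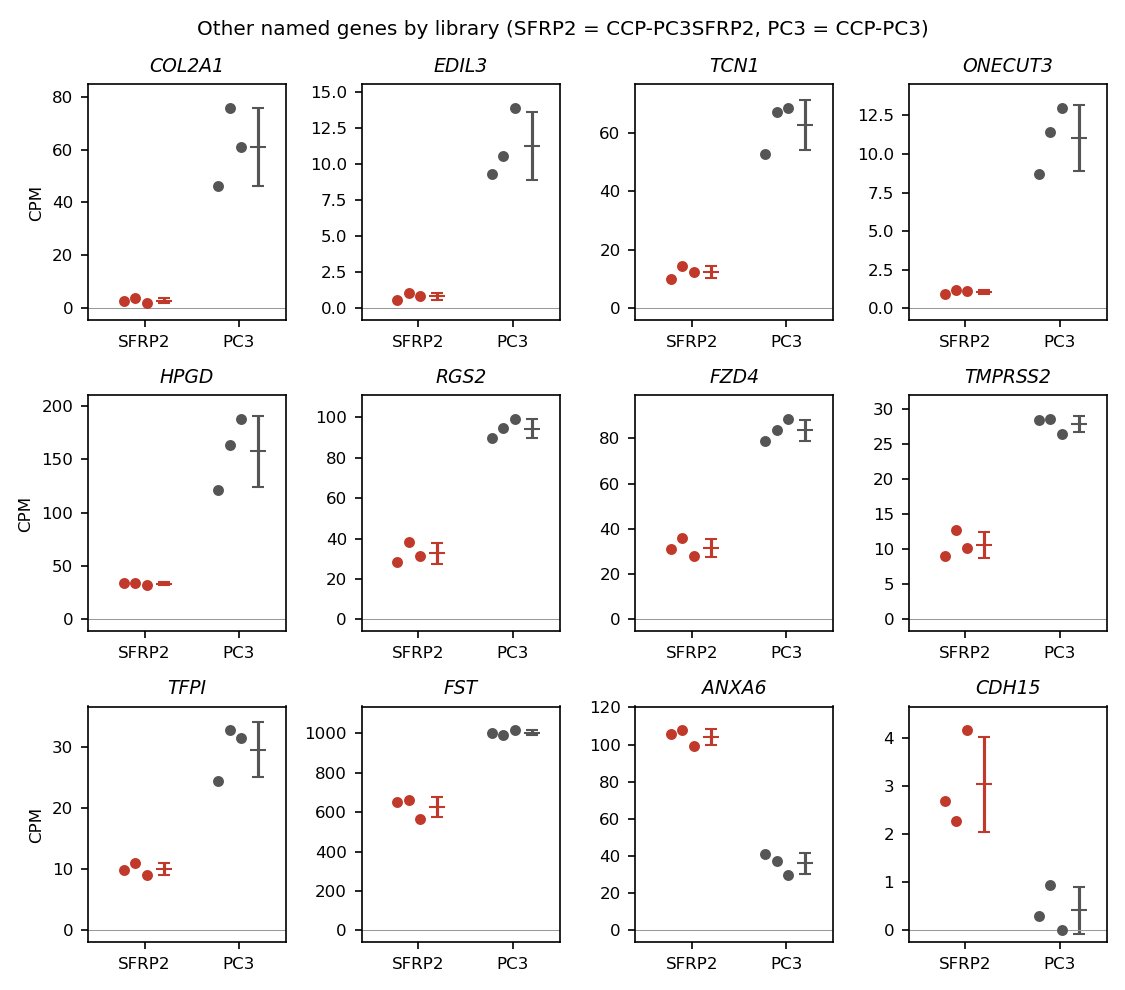
CPM in each library of 12 further named genes, CCP-PC3SFRP2 (red, left) and CCP-PC3 (gray, right), 3 points per group in replicate order with mean ± SD beside them; each panel has its own linear axis. The 10 genes from COL2A1 to FST are lower in CCP-PC3SFRP2 and ANXA6 and CDH15 higher, with no overlap of the groups in any panel.

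A set of mucosal secretory genes was lower in CCP-PC3SFRP2; it was put together after the values were seen and is given as a description. TCN1, the vitamin B12 carrier of mucosal secretions, is the member named by the rule on the smallest p values, and it had 10.2, 14.5 and 12.5 CPM in CCP-PC3SFRP2, against 52.7, 67.1 and 68.3 CPM in CCP-PC3 (log2 fold change -2.34, standard error 0.13, adjusted p = 4.21e-18). All 3 trefoil factors, peptides secreted with mucus, were called lower. TFF1 had 53.6, 64.8 and 53.9 CPM in CCP-PC3SFRP2, against 215, 199 and 145 CPM in CCP-PC3 (log2 fold change -1.70), TFF2 fell by 1.07, and TFF3, with 0, 1 and 0 counts in CCP-PC3SFRP2 against 15, 8 and 4 counts in CCP-PC3, fell by 4.24 (passed in 11 of 15 alternatives). Of 9 mucins tested 0 rose and 3 fell (MUC5B -1.54, MUC6 -1.85 and MUC2 -2.45), beside 2.62% of all genes called lower. The other 6 mucins were not called, and 4 of the 9 had positive log2 fold changes. Of 4 CEACAM cell surface glycoproteins 0 rose and 2 fell (CEACAM6 -1.78 and CEACAM5 -2.84), and 1 of the 4 was positive. With all 6 COL1 libraries, 0 of the 3 called mucins kept their sign on COL1, while the 3 trefoil factors and the 2 called CEACAM genes did. MUC5B, a gel-forming mucin of airway and glands, had 15.4, 16.2 and 19.95 CPM in CCP-PC3SFRP2, against 46.7, 44.3 and 59.4 CPM in CCP-PC3.

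Feedback inhibitors of the ERK pathway, also listed after the values were seen, were lower in part. Of 17 feedback and target genes of ERK, 0 rose, 6 fell and 11 were not called, and 4 of the 17 had positive log2 fold changes. DUSP6, the phosphatase of ERK, had 18.4, 27.8 and 21.4 CPM in CCP-PC3SFRP2, against 46.1, 61.3 and 59.1 CPM in CCP-PC3 (log2 fold change -1.30, standard error 0.13, adjusted p = 6.68e-10). SPRY4, an inhibitor of receptor kinase signaling, fell by 1.05, DUSP4 by 0.57 and SPRED2 by 0.39 on the log2 scale. Of the ETV transcription factors, targets of the same pathway, ETV1 fell by 0.61 (adjusted p = 1.35e-05), and ETV4 and ETV5 were not called (-0.16 and 0.06).

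Other genes outside the lists were among the largest changes. ONECUT3, a transcription factor, had 0.936, 1.21 and 1.1 CPM in CCP-PC3SFRP2, against 8.70, 11.4 and 12.9 CPM in CCP-PC3 (log2 fold change -3.33). TESC, which binds the sodium-proton exchanger, had 2, 3 and 0 counts in CCP-PC3SFRP2 and 38, 31 and 20 in CCP-PC3 (log2 fold change -4.01). PON3, a lactonase carried on lipoproteins, had 3, 12 and 9 counts in CCP-PC3SFRP2 and 0 in each CCP-PC3 library, at least 8.22-fold higher when the CCP-PC3 group is set at 3 counts in all, the limit that a count of 0 allows. The membrane peptidase MME (neprilysin) had 2.81, 4.29 and 3.06 CPM in CCP-PC3SFRP2, against 0.600, 0.816 and 0.800 CPM in CCP-PC3 (log2 fold change 2.19). The phosphodiesterase PDE10A (-4.48), MS4A7 (-2.98), WDR72 (-3.12) and FAM131B (-2.85) were lower and FAM167A (2.24), CYP4V2 (2.16, passed in 11 of 16 alternatives), CFAP58 (2.89, passed in 10 of 15 alternatives) and the transcription factor EGR2 (2.44, passed in 4 of 15 alternatives) higher, all at means under 10 CPM.

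Mitosis and glycolysis lists held 1 called gene each, while DNA replication, cholesterol synthesis, NRF2 and mitochondrial genome lists had larger shares than the 4.88% of all genes. DNA replication had 1 higher and 1 lower of 30 (POLD1 0.55, RFC3 -0.41), and mitosis 0 higher and 1 lower of 27 (HMMR -0.36). Few of the mitosis genes were called, but only 3 of the 27 had positive log2 fold changes. Their median was -0.10, against -0.001 over all genes. Glycolysis and hypoxia had 0 higher and 1 lower of 25 (the glucose transporter SLC2A1, -0.35, passed in 13 of 17 alternatives). Cholesterol and fatty acid synthesis had 2 higher and 2 lower of 28. STARD4 (0.55, passed in 12 of 17 alternatives) and ELOVL6 (0.51, passed in 7 of 17 alternatives) were higher and SCD (-0.47) was among the lower. NRF2 targets had 0 higher and 3 lower of 18 (among them ALDH3A1, an aldehyde dehydrogenase, at -0.81, and the malic enzyme ME1 at -0.41). Of the 13 protein genes of the mitochondrial genome, 0 rose and 3 fell, MT-CO3 by 0.43, MT-ND3 by 0.41 and MT-ATP6 by 0.33 on the log2 scale, while the mitochondrial shares of all counts overlapped between the groups. MT-ATP6 passed in 11 of 16 alternatives and was not called when libraries were adjusted for length and GC content, while MT-CO3 and MT-ND3 stayed called. The median transcript length of the 13 genes was 784 bases. Whether length has a part in their fold changes was otherwise not tested.

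**Figure D4:**
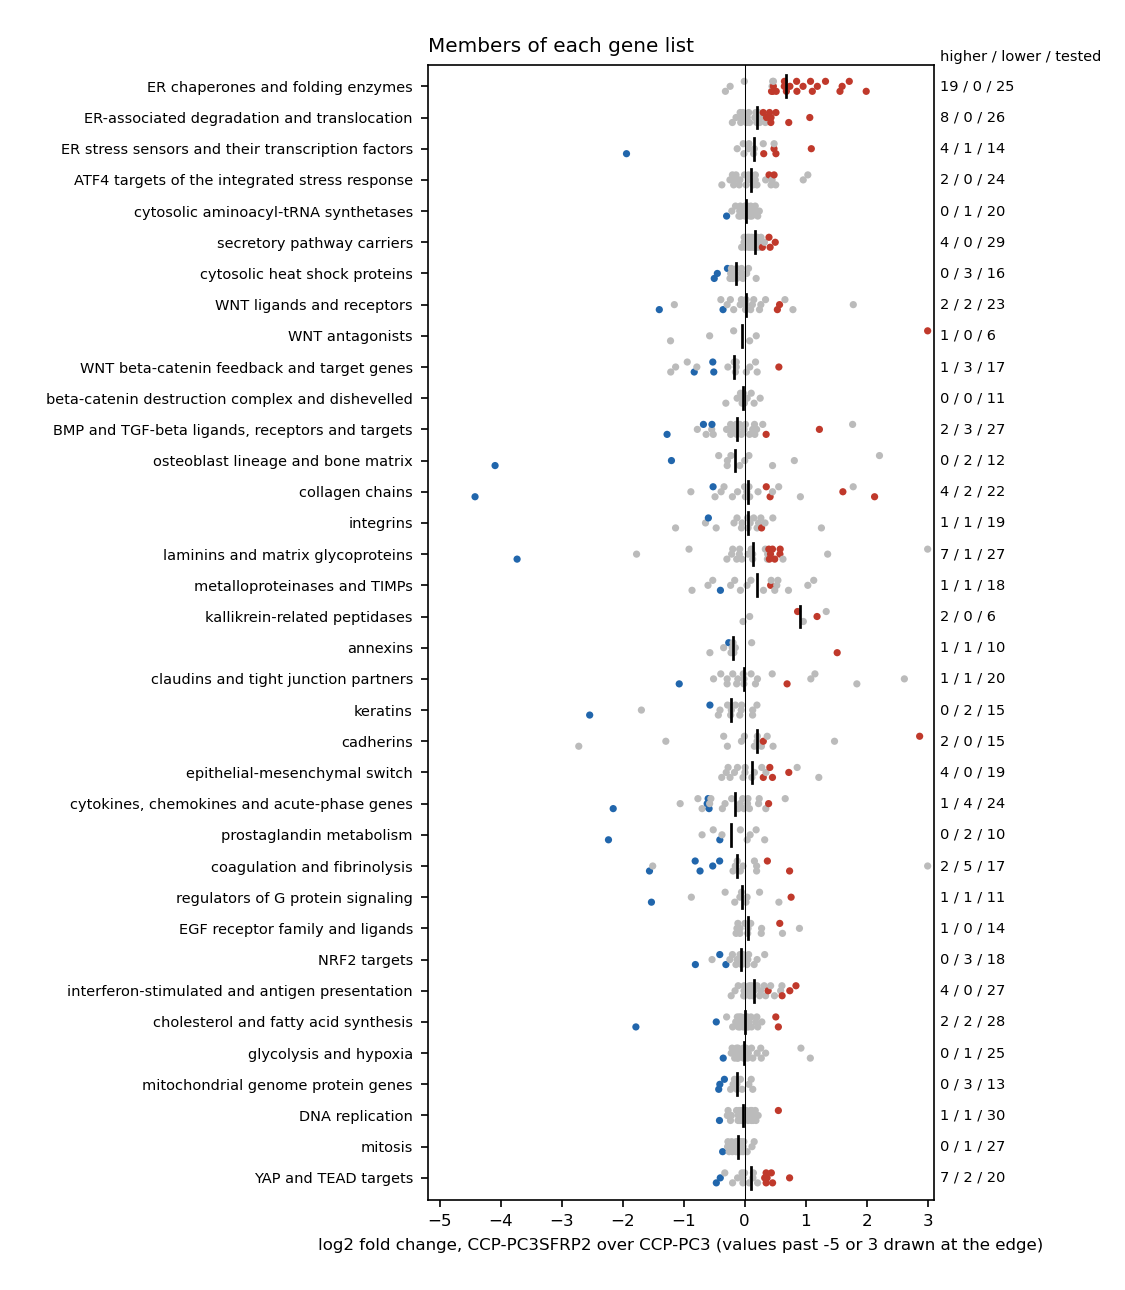
Log2 fold change (CCP-PC3SFRP2 over CCP-PC3) of each tested member of 36 gene lists, red for members called higher, blue for lower and gray for not called, with the list's median as a black line and the counts higher, lower and tested at the right. The ER chaperone list stands furthest to the right among lists of 10 or more genes, with 19 of 25 members called higher, and most other lists are centered near 0.

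Markers of PC3 were present in both groups. In bulk RNA, fewer cells of a type and less RNA per cell cannot be told apart. The epithelial genes KRT8, KRT18, EPCAM and CDH1 and the surface marker CD44 were present in every library, KLK3 was at 0 in all, KLK2 had 1 count in a single library, and the summed level of the 18 prostate and PC3 markers was 2960 to 3040 CPM in CCP-PC3SFRP2 and 2840 to 3130 CPM in CCP-PC3. Of the 14 tested, VIM rose and TMPRSS2, a surface protease of prostate epithelium, and HOXB13, a prostate homeobox factor, fell. TMPRSS2 had 9.01, 12.7 and 10.2 CPM in CCP-PC3SFRP2, against 28.5, 28.6 and 26.5 CPM in CCP-PC3 (log2 fold change -1.40). Markers of other cells were low: 10 neuroendocrine markers summed to 24.8 to 25.0 CPM against 20.4 to 26.8 CPM with INSM1 at 0, 10 stromal markers to 9.79 to 14.6 CPM against 8.30 to 9.87 CPM, and 10 blood and endothelial markers to 11.8 to 13.9 CPM against 14.01 to 17.4 CPM with CD3E and HBB at 0. Of these, SYT1 (1.46, at 4.40 ± 0.703 CPM against 1.64 ± 0.941 CPM; SD, n = 3 each) and LUM (20 counts in all against 1, passed in 9 of 15 alternatives) were called higher, and no blood or endothelial marker was called (0 of 3 tested; PECAM1 -0.42, and VWF with 11 counts against 0).

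Transcript length and base composition moved with the fold changes across genes. Among 10461 genes averaging at least 5 CPM, the log2 fold change correlated with transcript length at a Spearman correlation of 0.222 and with GC content at 0.146. In the quartile of genes with the shortest transcripts 38 were called higher and 151 lower, at a median log2 fold change of -0.07, and in the quartile with the longest 169 and 81, at a median of 0.06. When each library was adjusted for length and GC content, 1089 genes were called, 777 of them among the 891, and 20 of the ER chaperones were higher and 1 lower. Whether length or base composition has a part in the smaller differences was otherwise not tested.

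By position, the median log2 fold change of a chromosome lay between -0.062 (chromosome 13) and 0.035 (chromosome 1), in genes of at least 1 CPM. Chromosome 21 had the highest share of called genes, 11.3% of 142, with 1 higher and 15 lower, the lower ones including TMPRSS2 and the cluster of trefoil genes TFF1, TFF2 and TFF3. In runs of 30 neighboring genes, the most raised lay on chromosome 1 from 204198163 to 209676390 (GOLT1A to G0S2), where 26 of 30 genes had positive log2 fold changes at a median of 0.24 (LAMB3, ELK4, PIK3C2B and 3 others called higher, CD55 lower). The median of these 30 genes on COL1 was 0.11. The most lowered runs lay on chromosome 19, from 19385826 to 29715789 and overlapping it, at a median of -0.19. The median of these genes on COL1 was -1.002, or -0.789 without the third COL1-PC3SFRP2 library. Over all 9774 runs, the 1st and 99th percentiles of the median on CCP were -0.14 and 0.129.

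On collagen, the same measure in libraries that share no sample with the CCP comparison gave mostly the same signs for the genes called on CCP. The COL1 libraries come from the same transfected populations, so shared signs cannot separate an effect of SFRP2 from a difference between the populations. The share of same signs over all genes is not given here. Of the 888 genes called on CCP and tested on COL1, 659 (74.2%) had the same sign there, 269 were called in the same direction and 1 in the opposite one, where 14.9% of all genes tested on both surfaces were called on COL1. These counts depend on the third COL1-PC3SFRP2 library, which stands apart from its group. Its column repeats one that a larger deposited table gives under another replicate number, so which library it is remains in doubt. Without it 768 of 886 genes (86.7%) had the same sign, 524 were called in the same direction and 18 in the opposite one, beside a background of 34.6%. With the adjustment for length and GC content on COL1, 174 were called in the same direction, beside a background of 7.45%. HSPA5 had a log2 fold change of 2.07 on COL1, PDIA4 2.35, HYOU1 1.93, ANXA6 2.21 and EDIL3 -3.88, each called. HSP90B1 had 0.63 there and was not called (adjusted p = 0.33; 1.05 without the third COL1-PC3SFRP2 library), and 15 of the 19 chaperones called on CCP had the same sign on COL1. COL2A1 had 0.58 with all 6 libraries and -3.32 without the third COL1-PC3SFRP2 library, and CREB3L1 0.09 and -2.04. FZD4 had -0.36 and -1.52. The difference between the surfaces was not tested for these genes.

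**Figure D5:**
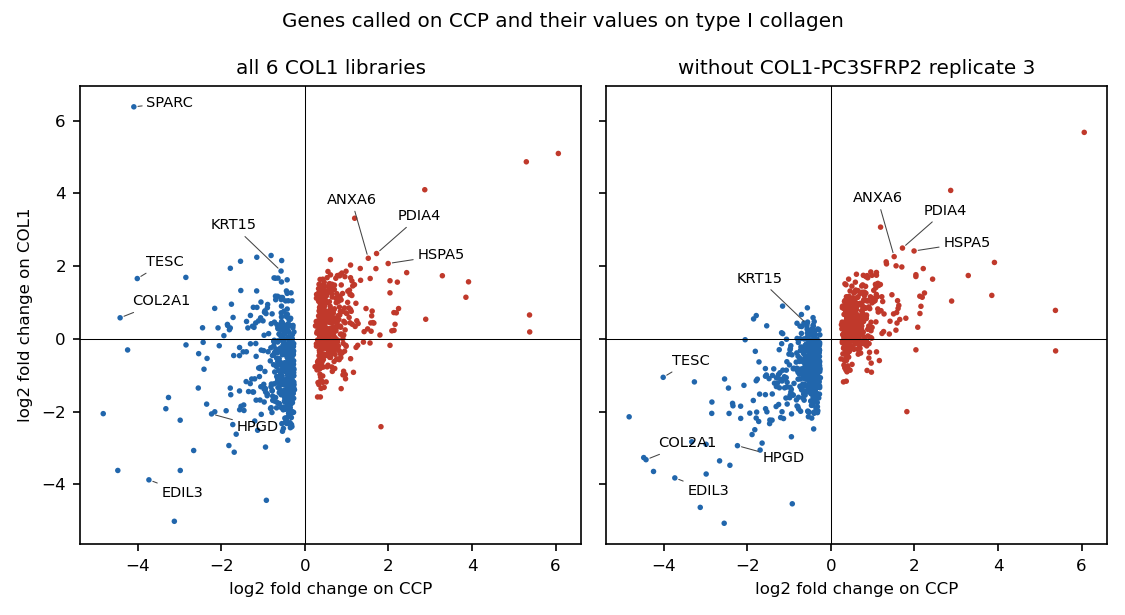
Log2 fold change on COL1 (vertical axis) against that on CCP (horizontal axis) of the genes called on CCP, higher in red and lower in blue, with SFRP2 left out, for all 6 COL1 libraries (left) and without the third COL1-PC3SFRP2 library (right). HSPA5, PDIA4 and ANXA6 are at 2 or more on COL1 in both panels, and COL2A1 moves below 0 in the right panel.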

How the data were processed

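RNA was sequenced in 12 libraries, of which the 6 on CCP were compared here. Libraries were made with the Lexogen SENSE mRNA-Seq kit and read as 50-base reads; STAR alignment to GRCh38 by the authors gave the deposited counts, unnormalized, for 60676 genes; 62 further count columns were not used, among them columns in another deposited table that are named as CCP-PC3 replicates but hold other counts than those used. The counting tool and its use of strand are not given in the sources used here, so overlapping and antisense genes may share reads. Genes with at least 10 counts over the 6 libraries (18253) were scaled by TMM and tested with the quasi-likelihood test of edgeR 4.0.16 (R 4.3.3, robust), with Benjamini-Hochberg adjustment at 0.05 and no covariate; the study's tool DESeq2 1.42.0 was an alternative. CPM are TMM-scaled, SD is over 3 libraries, and depth was 7446136 counts or more, with counting error only covered by the floor of 3 counts. Annotation was GENCODE 44, and 319 identifiers had no match. The COL1 libraries were fitted separately.

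Genes were named by a rule: SFRP2, COL2A1 and CDH15, the 10 smallest p values, the 12 largest changes in each direction among called, non-overlapping genes of at least 1 CPM, and up to 4 called members of each of 40 lists (2 by smallest p where none was called). Genes outside it were added after their values were seen. The comparison, lists and tests were chosen with earlier results of these data known. The test was also run on simulated data with 200 changed genes, with the outcome not reported here. Alternatives were all 12 libraries in the fit, DESeq2, its size factors, removal of mitochondrial genes or of SFRP2, other count filters, no robust fit, a replicate block, a GC and length correction, a second alignment deposited by the authors, and each library left out; those on COL1 were chosen after seeing the data. Some members of the lists are counted but not reported by name here.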

Additional observations from a re-analysis of the deposited data

Results flagged for a closer look

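For 5 genes the libraries of the 2 groups separated on both surfaces but in opposite directions; no test was made of the difference between the surfaces, and none of the 5 was called on COL1 (adjusted p from edgeR 0.058 for DERL2, 0.082 for KRT15, 0.22 for TMED2, 0.26 for AXL and 0.51 for PTGES). The log2 fold change of DERL2, a channel component of protein degradation at the ER, was 0.43 on CCP and -1.20 on COL1. TMED2, a cargo receptor, had 0.29 on CCP and -0.85 on COL1, and AXL, a receptor kinase, 0.35 on CCP and -0.37 on COL1. KRT15, a basal keratin, had -0.57 on CCP and 1.86 on COL1, and PTGES, a prostaglandin E synthase, -0.41 on CCP and 0.23 on COL1. Without the third COL1-PC3SFRP2 library, the values on COL1 were -0.84 for DERL2, 0.40 for KRT15, -0.41 for TMED2, -0.22 for AXL and 0.05 for PTGES, with DERL2 and TMED2 then called lower (adjusted p = 0.00061 and 0.048).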

How the results depend on the processing

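The 891 calls became 16 in the fit of all 12 libraries and 426 to 1599 when 1 library was left out, and lay within 1.5 times of 891 under the other 10 alternatives. The 51 genes beyond a log2 fold change of 2 became 8 in the fit of all 12 libraries, 29 with DESeq2, 28 with the filter of filterByExpr and 33 to 89 when 1 library was left out. Of the 269 genes called in the same direction on COL1, the number was 524 without the third COL1-PC3SFRP2 library and 174 with the GC and length correction. The difference in mitochondrial share was -0.223 percentage points, and 0.151 with SFRP2 left out of the denominator (exact permutation p = 0.8 and 0.9). Of 120 named genes called, 71 passed in every alternative on the 6 libraries that gave them an adjusted p, 15 passed in the fit of all 12 libraries, and no call changed sign. Where the cause of a change is not part of the alternative itself, it was not tested. Replicate numbers did not pair the samples (correlations of deviations -0.08, 0.129 and 0.039), and with the replicate block 1056 genes were called, 887 of them among the 891. The depth limits genes under about 1 CPM, whose calls rest on a few counts in a library.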
